A study of Mus musculus with 4 samples.

Results

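Protein tyrosine phosphatases are described here in mouse acute myeloid leukemia cells of wild type (WT) origin and in cells labelled Tet2 knockout. The members are all table rows whose gene symbol starts with Ptpn and a digit (the cytosolic family) or with Ptpr and a lower-case letter (the receptor-type family), which took 40 of 24589 entries. They comprise 21 receptor-type enzymes, 17 cytosolic enzymes, Ptprcap (a protein that binds the receptor phosphatase CD45 and has no phosphatase domain) and Ptprtos, an RNA antisense to Ptprt. The rule reads gene symbols and no expression value, although the family was picked with earlier results of these data known.

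The study measured messenger RNA by sequencing in 2 WT libraries (genotype WT) and 2 libraries with genotype Tet2 KO, replicate numbers 1 and 2 in each. All 4 came from leukemic cells made from bone marrow hematopoietic stem cells and carrying NRAS with AE9a, a truncated AML1-ETO fusion. All were kept in RPMI 1640 with murine cytokines (50 ng/ml SCF plus 10 ng/ml of both IL-3 and IL-6) under selection with puromycin (2 µg/ml) and G418 (1 mg/ml), and no treatment is labelled. The labels place the missing part of Tet2 in exons 8 to 10 and do not say whether the libraries of a genotype came from separate mice, clones or cultures, so the spread behind each p-value is that of these 4 libraries and may be technical. The sex and age of the mice are not given in the sources used here.

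Protein tyrosine phosphatases remove the phosphate that tyrosine kinases place on receptors, adaptors and STAT factors, and so set how long a cytokine signal lasts. Receptor-type enzymes sit in the plasma membrane. Cytosolic enzymes are brought to their substrates by SH2, FERM or other domains, or by anchoring to the endoplasmic reticulum. In myeloid cells the best known are CD45 (Ptprc), which activates Src-family kinases by removing their inhibitory phosphate, SHP-1 (Ptpn6), which ends signals of cytokine receptors, and SHP-2 (Ptpn11), which passes receptor signals on to RAS.

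Values are TPM, transcript abundances corrected for length and scaled to a common library total, so that levels can be compared between genes. Changes are knockout-labelled minus WT on the log2(TPM + 1) scale, which understates changes of low genes, from a limma fit over the 11837 genes that reached 1 TPM in 2 or more libraries. A gene was called at a Benjamini-Hochberg adjusted p under 0.05, and by this rule 30.5% of all tested genes were called, 18.9% higher and 11.6% lower. With 2 libraries a group an exact permutation test cannot go below p = 0.333, so calls rest on the variance that limma pools across genes. TPM keep no read depth, so no counting interval is given. Pearson's r across the tested genes, which are not independent replicates, was 0.992 between libraries of a group and lay between 0.979 and 0.982 otherwise. Tet2 itself had 35.0 and 40.0 TPM in WT, against 53.5 and 52.8 TPM in the knockout-labelled libraries. A whole-gene value does not check a deletion of 3 exons, so directions below are by label.

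Of the 38 enzymes, 25 were expressed enough to test, 11 of 21 receptor-type and 14 of 17 cytosolic. In the knockout-labelled libraries 8 of the 25 rose, 2 fell and 15 did not pass, against 18.9% higher and 11.6% lower among all tested genes. The receptor-type genes Ptprc, Ptpre, Ptpra and Ptprs and the cytosolic genes Ptpn4, Ptpn9, Ptpn18 and Ptpn22 rose, while Ptpn1 and Ptprj fell. Ptprcap rose as well. Ptpn1 and Ptpn4 had the largest called changes, with knockout-labelled levels at 0.704 and 1.46 times those of WT. The rises were small, at 1.13 to 1.28 times the WT mean TPM for the other called genes that rose. With values scaled to the spike-in RNAs only Ptpn4 was called higher and only Ptpn1 lower, beside 5.36% and 12.6% of all genes. Counting Ptprcap, 9 members rose. Leaving out the first or the second knockout-labelled library left 2 and 1 called higher, and leaving out WT replicate 1 left 5.

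**Figure D1:**
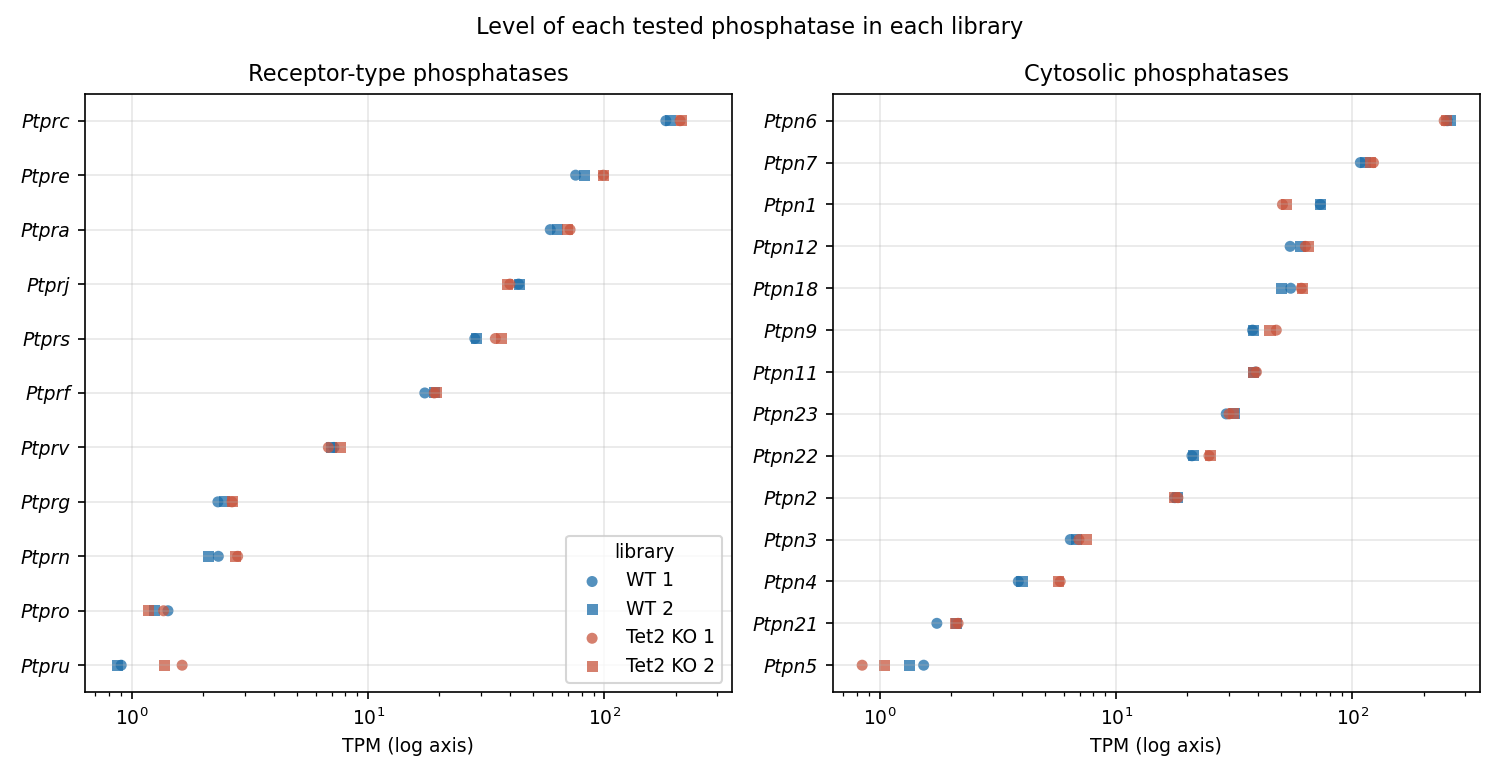
TPM of each tested phosphatase on a log axis, with receptor-type genes on the left and cytosolic genes on the right, ordered by mean level; each point is 1 library (blue WT, red knockout-labelled, circles replicate 1, squares replicate 2). Levels run from about 1 TPM to the 259.6 TPM of Ptpn6, and the Ptpn1 points of the knockout-labelled libraries lie at 50.5 and 52.7 TPM, left of WT.

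CD45 (Ptprc), the receptor-type phosphatase that marks all nucleated blood cells, was the most abundant receptor-type member. It had 182.0 and 191.2 TPM in WT and 209.1 and 211.1 TPM in the knockout-labelled libraries, so the groups did not overlap. Among all tested genes the knockout-labelled libraries lay wholly above WT for 42.2% and wholly below for 26.5% (68.6% in either direction). Ptprc rose by 0.17 on the log2 scale (SE 0.037, adjusted p = 0.022). It made up 42.8% to 43.3% of the summed receptor-type TPM in every library, so its share of the class hardly moved. Ptprc spans 138062861 to 138175708 of chromosome 1 on the minus strand of GRCm38, the build of all positions here.

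Ptprcap, the small transmembrane partner of CD45, had 57.5 and 56.2 TPM in WT and 71.2 and 74.6 TPM in the knockout-labelled libraries. Its groups did not overlap, and it rose by 0.35 (SE 0.041, adjusted p = 0.0034). Its value is uncertain, because 76% of its exonic bases on chromosome 19 (4153604 to 4156751) are shared with the opposite-strand gene Rps6kb2 and 26.8% with Coro1b on its own strand. The strand setting of the counting is not given in the sources used here. Rps6kb2 had 23.6 and 24.4 TPM in WT against 21.5 and 26.1, and Coro1b 226.4 and 217.2 TPM against 226.3 and 223.1. Both of these neighbours had overlapping groups, with log2 changes of -0.017 (adjusted p = 0.91) and 0.019 (adjusted p = 0.72).

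Ptpre and Ptpra are the pair of receptor-type enzymes with a short extracellular part, and both can activate Src-family kinases. Ptpre is also made as a cytosolic form from another start site, which a value per gene cannot separate from the membrane form. Ptpre had 75.5 and 82.3 TPM in WT and 99.0 and 99.5 TPM in the knockout-labelled libraries, and rose by 0.33 (SE 0.050, adjusted p = 0.0076). The lower of its knockout-labelled libraries lay further above the higher WT library than the WT libraries lay apart. Ptpra had 59.0 and 63.4 TPM in WT and 71.5 and 69.5 TPM in the knockout-labelled libraries, and rose by 0.20 (SE 0.048, adjusted p = 0.029). The groups of Ptpra also did not overlap. Ptpre was 1.28 and 1.30 times Ptpra in WT and 1.38 and 1.43 times in the knockout-labelled libraries. Ptpre lies on chromosome 7 (135537481 to 135686293) and Ptpra on chromosome 2 (130450278 to 130556124), both on the plus strand.

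Ptprj (CD148) carries fibronectin repeats outside the cell and acts on Src-family kinases in myeloid cells and platelets. It was the only receptor-type member called lower, with 43.3 and 43.6 TPM in WT and 39.8 and 39.0 TPM in the knockout-labelled libraries. The groups did not overlap, but the fall of 0.14 on the log2 scale (SE 0.039, adjusted p = 0.047) was close to the threshold. The call did not hold with a replicate block (adjusted p = 0.080) or without any 1 of the 4 libraries, and on the spike-in scale the change was -0.25 (adjusted p = 0.053). The other tested genes of its subfamily, Ptpro and Ptprv, did not pass. Ptpro, which blood cells make as a truncated form, had 1.42 and 1.24 TPM in WT and 1.36 and 1.18 TPM in the knockout-labelled libraries. Ptprv, which GENCODE lists as a processed transcript and not as protein-coding, had 7.16 and 6.97 TPM against 6.78 and 7.65. The groups of both genes overlapped. The change of Ptpro was -0.04 (95% interval -0.37 to 0.29), and that of Ptprv was 0.02 (-0.18 to 0.23).

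Ptprs and Ptprf belong to the LAR group, adhesion-type receptors best known from neurons and epithelia. Ptprs had 28.3 and 28.8 TPM in WT and 34.5 and 36.6 TPM in the knockout-labelled libraries, and rose by 0.31 (SE 0.048, adjusted p = 0.0083). Ptprs is on chromosome 17 (56412426 to 56476483, minus strand). Ptprf had 17.4 and 19.0 TPM in WT and 19.0 and 19.4 TPM in the knockout-labelled libraries, so that the groups nearly touched. Its change of 0.08 did not pass (95% interval -0.07 to 0.23, adjusted p = 0.38). Ptprd, the third gene of the LAR group, reached no more than 0.02 TPM in any library.

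The remaining tested receptor-type genes were near the filter and did not pass. Ptprg, which has a carbonic anhydrase-like domain, had 2.31 and 2.46 TPM in WT against 2.65 and 2.67 (log2 change 0.11, adjusted p = 0.43). Ptprn, a secretory granule protein of endocrine cells and neurons without known phosphatase activity, had 2.32 and 2.11 TPM against 2.80 and 2.75 (0.23, adjusted p = 0.14). Ptpru, an adhesion receptor with a MAM domain, had 0.90 and 0.87 TPM against 1.63 and 1.37 (0.41, adjusted p = 0.072). In these 3 genes the knockout-labelled libraries were above WT without overlap. Ptpru was tested only because its knockout-labelled libraries exceeded 1 TPM, so its direction among tested genes was fixed by the filter.

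PTP1B (Ptpn1) is anchored to the endoplasmic reticulum and dephosphorylates JAK2, TYK2 and the insulin receptor, and TC-PTP (Ptpn2) is its closest relative, acting on JAK1, JAK3 and STATs in the nucleus and cytoplasm. Ptpn1 had 73.1 and 73.5 TPM in WT and 50.5 and 52.7 TPM in the knockout-labelled libraries. The gap between the groups was far wider than the spread within either. Ptpn1 fell by 0.50 on the log2 scale (SE 0.039, 95% interval -0.60 to -0.40, adjusted p = 0.0011). It was the only member called under all 16 other settings, in which its change lay between -0.61 and -0.47 (adjusted p from 0.00022 to 0.025). Ptpn1 lies on chromosome 2 from 167932057 to 167979385, plus strand.

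Ptpn2 had 17.7 and 18.1 TPM in WT and 18.2 and 17.6 TPM in the knockout-labelled libraries, with overlapping groups. Its change was 0.00028 (95% interval -0.13 to 0.13, adjusted p = 0.998), an interval that does not reach the change of Ptpn1. Ptpn1 was accordingly 4.13 and 4.05 times Ptpn2 in WT and 2.77 and 2.99 times in the knockout-labelled libraries. The difference between these paralogs was not tested in a model of its own.

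SHP-1 (Ptpn6) and SHP-2 (Ptpn11) bind phosphorylated receptors through paired SH2 domains. Ptpn6 was the most abundant of all members, with 251.9 and 259.6 TPM in WT and 244.5 and 248.9 TPM in the knockout-labelled libraries. Its groups did not overlap, yet the change of -0.05 did not pass (95% interval -0.13 to 0.03, adjusted p = 0.29). Ptpn11, a leukemia gene when activated by mutation, had 38.8 and 38.2 TPM in WT and 39.2 and 38.0 TPM in the knockout-labelled libraries. Those groups overlapped, and the change was 0.0035 (95% interval -0.10 to 0.11, adjusted p = 0.96). Ptpn6 was 6.24 to 6.80 times Ptpn11 over the 4 libraries.

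The PEST group restrains antigen receptor and adhesion signalling. Ptpn22 (PEP, or Lyp in humans) had 20.9 and 21.2 TPM in WT and 24.7 and 25.0 TPM in the knockout-labelled libraries, and rose by 0.23 (SE 0.045, adjusted p = 0.017). Ptpn18 had 54.8 and 49.9 TPM in WT and 60.8 and 61.2 TPM in the knockout-labelled libraries, and rose by 0.22 (SE 0.053, adjusted p = 0.032). In both genes the groups were separate, although the WT libraries of Ptpn18 differed by nearly as much as the gap between its groups. The Ptpn18 call was lost under 8 of 16 other settings, among them trimmed-mean scaling and leaving out WT replicate 2 or either knockout-labelled library. Ptpn12 (PTP-PEST), which acts on focal adhesion proteins, had 54.5 and 60.0 TPM against 63.2 and 65.1. It did not pass (0.16, adjusted p = 0.079), except without WT replicate 2 (0.23, adjusted p = 0.031). Ptpn22 is on chromosome 3 (103859795 to 103912247) and Ptpn18 on chromosome 1 (34459762 to 34475733).

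Ptpn7 (HePTP) binds and inactivates the MAP kinases ERK and p38 in blood cells, and Ptpn5 (STEP) does so in neurons. Ptpn7 was the second most abundant cytosolic member, with 108.0 and 113.3 TPM in WT and 122.7 and 118.8 TPM in the knockout-labelled libraries. Its groups did not overlap, but its change of 0.13 did not pass (95% interval 0.02 to 0.23 before adjustment, adjusted p = 0.067). Ptpn5 had 1.53 and 1.33 TPM in WT and 0.84 and 1.04 TPM in the knockout-labelled libraries. It lay lower without overlap and did not pass (-0.33, adjusted p = 0.13). Ptprr, the receptor-type gene with the same kinase-binding motif, reached no more than 0.13 TPM.

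Of the cytosolic enzymes with a FERM domain, Ptpn4, which binds T cell receptor and glutamate receptor proteins, had 3.85 and 3.99 TPM in WT and 5.79 and 5.68 TPM in the knockout-labelled libraries. The groups were far apart relative to their spread, and Ptpn4 rose by 0.45 (SE 0.078, adjusted p = 0.011), the largest called rise of any member. On the spike-in scale it was also called (0.36, adjusted p = 0.044), but it was not called without WT replicate 1 (0.43) or without either knockout-labelled library (0.44 and 0.465), with adjusted p up to 0.083. It lies on chromosome 1 from 119652467 to 119837613. Its closest relative Ptpn3 had 6.39 and 6.79 TPM against 6.95 and 7.49 (0.11, adjusted p = 0.30), and Ptpn21 had 1.74 and 2.10 TPM against 2.14 and 2.08 (0.09, adjusted p = 0.59). Neither passed, and the groups of Ptpn21 overlapped.

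Ptpn9 (PTP-MEG2), an enzyme of secretory vesicles with a lipid-binding SEC14 domain, had 37.8 and 38.3 TPM in WT and 47.6 and 44.8 TPM in the knockout-labelled libraries. The groups were separate and Ptpn9 rose by 0.27 (SE 0.046, adjusted p = 0.011). It lies on chromosome 9 from 56994923 to 57062807. Ptpn23 (HD-PTP), an endosomal sorting protein with little or no phosphatase activity, had 29.2 and 31.6 TPM in WT and 30.0 and 31.4 TPM in the knockout-labelled libraries. Its groups overlapped, with a change of 0.016 (95% interval -0.12 to 0.16, adjusted p = 0.85).

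**Figure D2:**
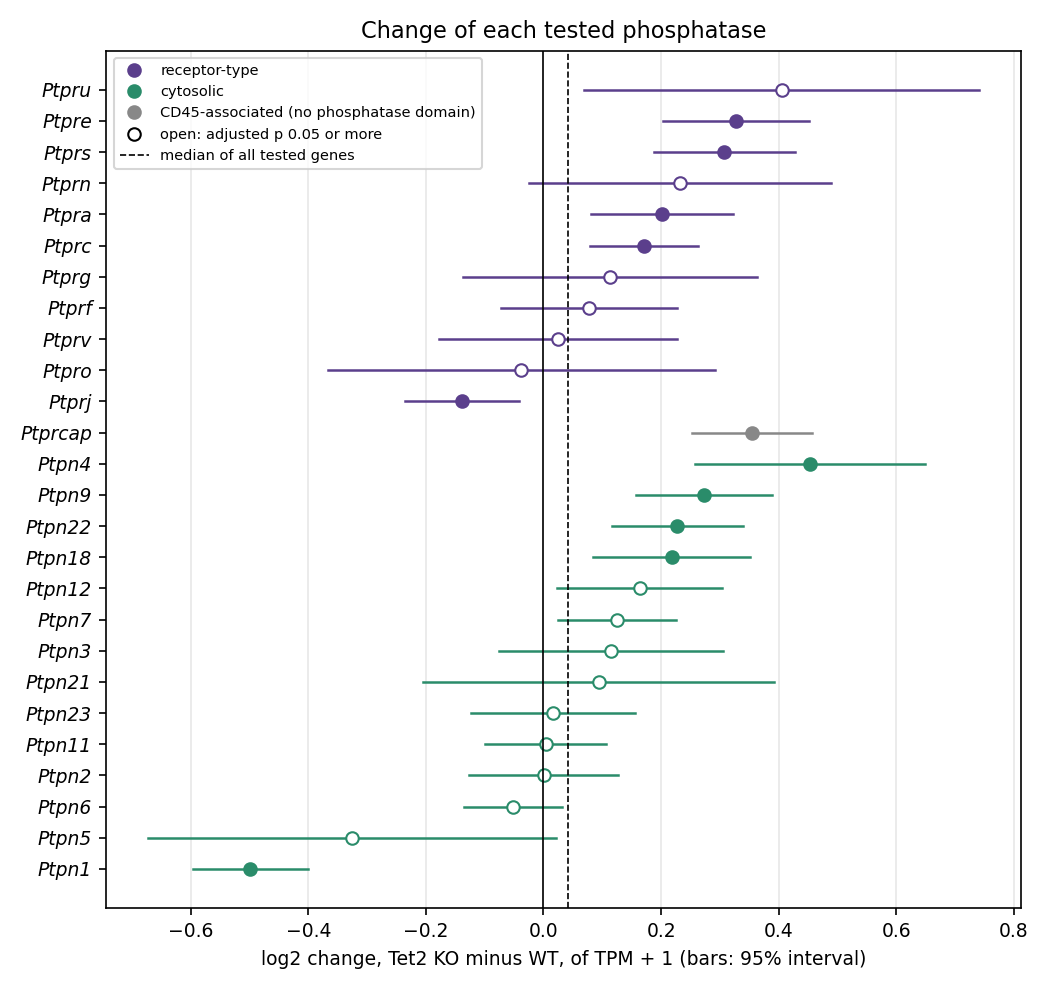
Log2 change of each tested member, knockout-labelled minus WT, with 95% intervals from limma; filled points were called, open points were not, purple is receptor-type, green cytosolic and grey Ptprcap. The dashed line is the median of all tested genes (0.04), and Ptpn1 stands apart at -0.50 at the bottom.

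The members not tested were 10 receptor-type genes, 3 cytosolic genes and Ptprtos. Ptprn2, the granule partner of Ptprn, had 0.24 and 1.01 TPM in WT against 0.40 and 0.28. None of the other receptor-type genes in this set (Ptprb of endothelium, the adhesion receptors Ptprk, Ptprm and Ptprt, and Ptprd, Ptprh, Ptprq, Ptprr and Ptprz1) exceeded 0.13 TPM in any library. Of the cytosolic genes, Ptpn13 reached 0.06 TPM and Ptpn14 0.02 TPM at most. Ptprq, Ptprz1 and Ptpn20 were listed at 0 in all 4 libraries, as was Ptprtos.

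Set by class, 4 of 11 tested receptor-type genes rose and 1 fell, and 4 of 14 cytosolic genes rose and 1 fell, beside 18.9% higher and 11.6% lower among all tested genes. The median change was 0.17 for receptor-type and 0.10 for cytosolic genes, beside 0.04 for all tested genes. Scaling to the spike-ins lowered the median of all genes by 0.11 to -0.07, and the class medians were then 0.06 and 0.01. The spike-ins held 29764 and 33037 TPM in WT and 34136 and 33853 TPM in the knockout-labelled libraries. WT replicate 2 thus lay nearer to both knockout-labelled libraries than to WT replicate 1, and the size of that shift rests largely on WT replicate 1. Relative to the median of all genes the class medians were 0.13 and 0.06 as deposited and 0.12 and 0.08 on the spike-in scale. Without any filter the receptor-type median was 0.03 and the cytosolic median 0.06. The knockout-labelled libraries were wholly above WT for 8 receptor-type and 7 cytosolic genes and wholly below for 1 and 3, beside 42.2% above and 26.5% below among all tested genes. Ptpru and Ptpn5, at about 1 TPM, are in these counts and medians and passed the filter through the group where each is higher, Ptpn5 with 1 library of the other group. Over the 7 receptor-type and 11 cytosolic genes averaging 5 TPM or more the medians were 0.17 and 0.11. These counts and medians describe the classes, and the difference between them was not tested.

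The summed level of all 21 receptor-type genes was 420 and 443 TPM in WT and 489 and 491 TPM in the knockout-labelled libraries. The groups did not overlap, and the knockout-labelled mean was 1.14 times that of WT. The summed level of the 17 cytosolic genes was 700.1 and 718.1 TPM in WT and 717 and 720 TPM in the knockout-labelled libraries, which overlapped (1.01 times). Receptor-type TPM were therefore 0.600 and 0.617 times cytosolic TPM in WT and 0.682 in both knockout-labelled libraries. Without Ptprc, the receptor-type sums were 238 and 252 TPM in WT against 279.7 and 279.9. The cytosolic total held both the fall of Ptpn1 and the rises of Ptpn9, Ptpn18, Ptpn22 and Ptpn4. These sums are TPM as deposited and were not recomputed with spike-in scaling. Spike-in TPM were higher in both knockout-labelled libraries than in either WT library, so that scaling lowers both class sums relative to WT. The 1.14 and 1.01 times, and the overlap of the cytosolic sums, therefore hold only for TPM as deposited. The ratio of receptor-type to cytosolic TPM within a library does not depend on that scaling.

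**Figure D3:**
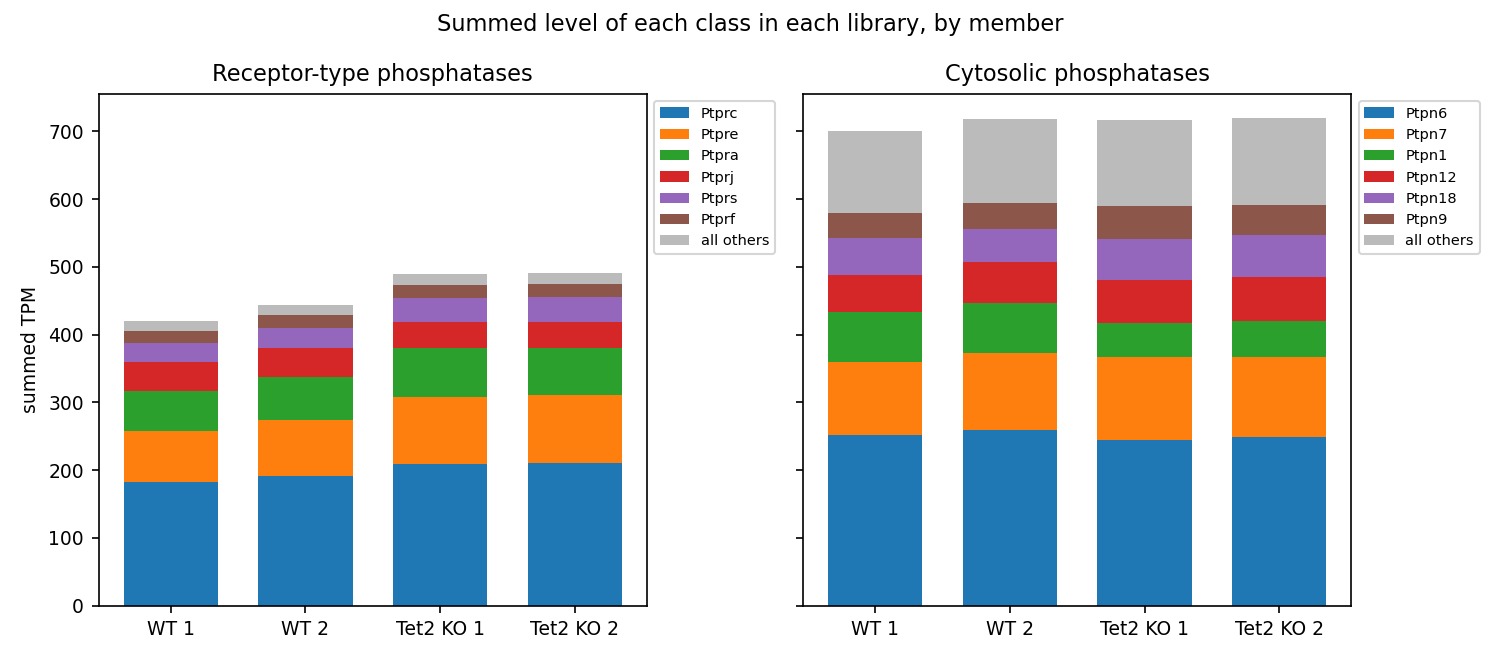
Summed TPM, as deposited, of receptor-type genes (left) and cytosolic genes (right) in each library, stacked by the 6 most abundant members, with the rest in grey. The receptor-type bars of the knockout-labelled libraries (489 and 491 TPM) stand above those of WT (420 and 443 TPM), while the cytosolic bars lie between 700.1 and 720 TPM.

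In order of mean level over the 4 libraries the leading members were Ptpn6, Ptprc, Ptpn7, Ptpre and Ptpra, then Ptpn1, Ptpn12, Ptpn18, Ptpn9 and Ptprj. In WT each of the first 4 was above the next in both libraries, whereas Ptpra was not above Ptpn1, which at 73.3 TPM on average exceeded it (61.2 TPM). In the knockout-labelled libraries the order of that pair was the other way round, with Ptpra at 70.5 and Ptpn1 at 51.6 TPM on average. Ptpn12 and Ptpn18 could not be ordered in WT, where their values crossed (54.5 and 60.0 against 54.8 and 49.9 TPM).

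For 4 members that rose, the sequence before the transcript start is shown because these start regions differ widely in CpG dinucleotides, the sites that TET enzymes act on when the cytosine is methylated. Sequences are from RefSeq on GRCm38.p6, run 5′ to 3′ on the gene's strand and end at the base before an annotated start, with each CG in capitals. The window of Ptprc is chr1:138175306-138175555 on the minus strand, that of Ptpn22 chr3:103859545-103859794 on the plus strand, that of Ptpra chr2:130450028-130450277 on the plus strand and that of Ptprs chr17:56476481-56476730 on the minus strand.
Ptprc: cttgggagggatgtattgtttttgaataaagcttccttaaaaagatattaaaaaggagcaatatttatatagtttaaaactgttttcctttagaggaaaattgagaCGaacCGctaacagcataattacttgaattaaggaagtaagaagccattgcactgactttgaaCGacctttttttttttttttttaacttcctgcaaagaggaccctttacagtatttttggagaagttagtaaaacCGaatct
Ptpn22: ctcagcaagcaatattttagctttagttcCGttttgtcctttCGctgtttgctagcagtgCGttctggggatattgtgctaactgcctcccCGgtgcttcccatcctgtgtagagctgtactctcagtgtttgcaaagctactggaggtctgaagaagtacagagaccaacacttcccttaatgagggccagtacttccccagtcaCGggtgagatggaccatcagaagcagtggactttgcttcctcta
Ptpra: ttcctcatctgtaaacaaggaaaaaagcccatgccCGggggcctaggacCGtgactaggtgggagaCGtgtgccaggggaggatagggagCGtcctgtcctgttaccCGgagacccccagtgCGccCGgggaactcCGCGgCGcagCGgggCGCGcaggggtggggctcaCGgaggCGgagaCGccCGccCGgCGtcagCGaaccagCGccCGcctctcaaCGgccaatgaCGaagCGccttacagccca
Ptprs: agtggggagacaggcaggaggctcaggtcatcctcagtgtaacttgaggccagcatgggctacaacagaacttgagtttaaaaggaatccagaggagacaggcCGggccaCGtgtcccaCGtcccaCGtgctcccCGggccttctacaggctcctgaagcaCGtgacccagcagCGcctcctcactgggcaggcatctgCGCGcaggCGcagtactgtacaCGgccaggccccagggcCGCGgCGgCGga

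Those 250 bases held 4 CG in Ptprc and 5 in Ptpn22, genes known mainly from blood cells. They held 25 in Ptpra and 15 in Ptprs, which are widely expressed. These 4 genes were picked from members that rose, so their shared direction carries no information on CG number. In the members that fell, the window of Ptpn1 held 41 CG and the windows of Ptprj held 3 and 34. The window of Ptpn4, which rose, held 36. All 250 bases of the Ptpn1 and Ptpn4 windows also lie in annotated exons of the same gene, so they are not purely upstream sequence. The Ptprj window with 3 CG lies inside the gene and shares 175 bases with an exon of 4933423P22Rik. Whether CG number goes with direction was not tested. RefSeq windows matched 33 of the 40 members (47 starts, median 15 CG), beside a median of 6 CG over all 32851 windows. Ptpn2, on chromosome 18, was left out of this match beforehand. The letters GAGGAA, the core of sites for the myeloid factor PU.1, were searched on both strands. They occurred in the shown windows of Ptprc, Ptpn22 and Ptpra, not in that of Ptprs, and in 23.3% of all windows. The 4 shown windows were picked, so they give no share to set beside that percentage. Among members that fell, the windows of Ptprj held 1 and 2 GAGGAA and that of Ptpn1 held 0. The RUNX core TGTGGT, searched the same way, was in 14% of all windows and in none of the 4 shown. Other annotated starts differed: a further Ptpn22 window held 2 TGTGGT and 1 GAGGAA, and a further Ptprs window held 1 GAGGAA. A further Ptprc window held neither motif. DNA methylation and factor binding were not measured.

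Genes that work with these enzymes were counted from lists, to be read against the 30.5% of all tested genes that were called. Among 19 tested tyrosine phosphatases outside the receptor-type and cytosolic families 3 rose and 1 fell (21.1% called), with a median change of 0.08. Ssh2, which dephosphorylates the actin regulator cofilin, rose by 0.37 (SE 0.044, adjusted p = 0.0035) and Eya2 by 0.63, while the cell cycle phosphatase Cdc25b fell by 0.26. Among 21 tested cytosolic tyrosine kinases 2 rose and 5 fell, 33.3% called, with a median of 0.03. The Src-family kinase Fgr (-0.57) fell, as did Syk (-0.23) and the Csk-like kinase Matk (-0.48), whereas Jak3 (0.31) and Abl1 (0.19) rose. These kinases include substrates of CD45, CD148 and SHP-1.

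Of 31 tested cytokine receptors, receptor tyrosine kinases, adaptors and STATs 11 rose and 6 fell (54.8% called), with a median of 0.05. Csf2ra, the GM-CSF receptor alpha chain, fell from 164.6 and 175.7 TPM to 58.9 and 63.1 TPM (-1.47), and the shared beta chain Csf2rb (-0.31) and the adaptor Dok2 (-0.61) also fell. Stat5b rose by 0.30. A further list was drawn up for receptors with inhibitory ITIM motifs, which can dock SHP-1 and SHP-2. Of its 19 tested genes 3 rose and 10 fell (68.4% called), with a median of -0.21. Whether each of them has such a motif or docks these enzymes was not checked. Siglece (-1.57), Fcgr2b (-0.57), Ceacam1 (-0.85) and Clec4a2 (-0.65) fell.

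The label of AML cells was checked against 12 markers of myeloid progenitors, of which 11 were tested, 6 rising (CD45, itself a member, among them), 2 falling and 3 not passing, and Flt3 was below 1 TPM in every library. Cd34 (189.3 and 199.1 against 270.2 and 265.8 TPM) and Mpo (730.7 and 757.5 against 989.8 and 1037.1 TPM) were present in both groups and rose, while neutrophil elastase (Elane, 273.4 and 276.1 against 108.6 and 117.3 TPM) and the transcription factor Spi1 (235.2 and 239.8 against 200.1 and 195.6 TPM) were present and fell. Of 18 neutrophil markers 16 fell and 1 rose, and their summed level was 48609 and 48029 TPM in WT and 24403 and 24691 TPM in the knockout-labelled libraries. Of 17 tested macrophage and dendritic cell markers 7 fell and 4 rose (summed 4119 and 4238 against 3109 and 3085 TPM). In bulk RNA, fewer cells of a type and less RNA per cell cannot be told apart. The part of these shifts in the changes of Ptpn1, Ptprj and the members that rose was not tested. With TPM rescaled without the neutrophil markers, which moves all genes of a library alike, Ptpn1 changed by -0.53, and Ptpra by 0.17 and was no longer called (adjusted p = 0.054).

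Lymphocyte markers bear on Ptprcap, Ptpn22 and Ptpn7, which are abundant in lymphocytes. Of 15 measured lymphocyte markers 12 were below 1 TPM in every library and Cd3e, Ms4a1, Ncr1 and Rag1 were listed at 0, with a summed level of 17.8 and 19.9 TPM in WT and 12.6 and 12.7 TPM in the knockout-labelled libraries. The sum was mostly Il7r in WT, which fell from 13.5 and 15.5 to 5.94 and 5.94 TPM. Cd79b rose from 2.60 and 2.49 to 4.37 and 4.58 TPM, and Lck, the third tested marker, did not pass. The part of lymphocyte RNA in the values of Ptprcap, Ptpn22 and Ptpn7 was not tested. Stromal, endothelial and epithelial markers summed to 11.4 and 12.4 TPM in WT against 19.0 and 19.5, with Cdh5, Kdr and Col1a1 among the 8 of 12 below 1 TPM in every library. Of the 3 tested, 2 rose and Tek did not pass. Epcam rose from 3.21 and 3.53 to 6.27 and 7.21 TPM, and Pdgfrb from 5.92 and 5.93 to 8.65 and 8.72 TPM. Mast cell and basophil markers summed to 2034 and 2114 against 2180 and 2118 TPM (5 of 8 tested fell, 1 rose, and Fcer1a and Mcpt4 were below 1 TPM), and eosinophil markers to 47.4 and 52.9 against 49.2 and 47.9 TPM (2 of 3 fell, 1 rose, with Epx below 1 TPM). Cpa3, the mast cell marker that rose, had 1302.5 and 1365.9 against 1667 and 1606.4 TPM, while Hdc fell from 207.7 and 214.3 to 99.0 and 98.3 TPM. Among eosinophil markers Prg2 fell from 13.7 and 14.7 to 0.93 and 1.46 TPM, and Siglecf rose from 31.8 and 36.0 to 47.6 and 45.9 TPM. Erythroid and megakaryocyte markers summed to 296.5 and 290.8 against 364.1 and 376.7 TPM (2 of 5 rose, 1 fell, with Klf1 and Alas2 below 1 TPM in every library).

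Calls of the members that rose, Ptpn4 included, moved with the settings. Spike-in scaling ended the calls of Ptprc, Ptpre, Ptpra, Ptprs, Ptprcap, Ptpn9, Ptpn18 and Ptpn22, with changes between 0.06 and 0.24 and adjusted p from 0.063 to 0.63. Relative to the median of all genes on that scale these changes were 0.12 to 0.31. Leaving out either knockout-labelled library ended the calls of Ptprc, Ptpre, Ptpra, Ptpn9, Ptpn18, Ptpn22 and Ptpn4, and leaving out the second also ended that of Ptprs. Leaving out WT replicate 1 ended those of Ptprc, Ptpra, Ptpn22 and Ptpn4. The directions of all 11 called members were the same under all 16 other settings, as the plot of changes by setting shows.

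**Figure D4:**
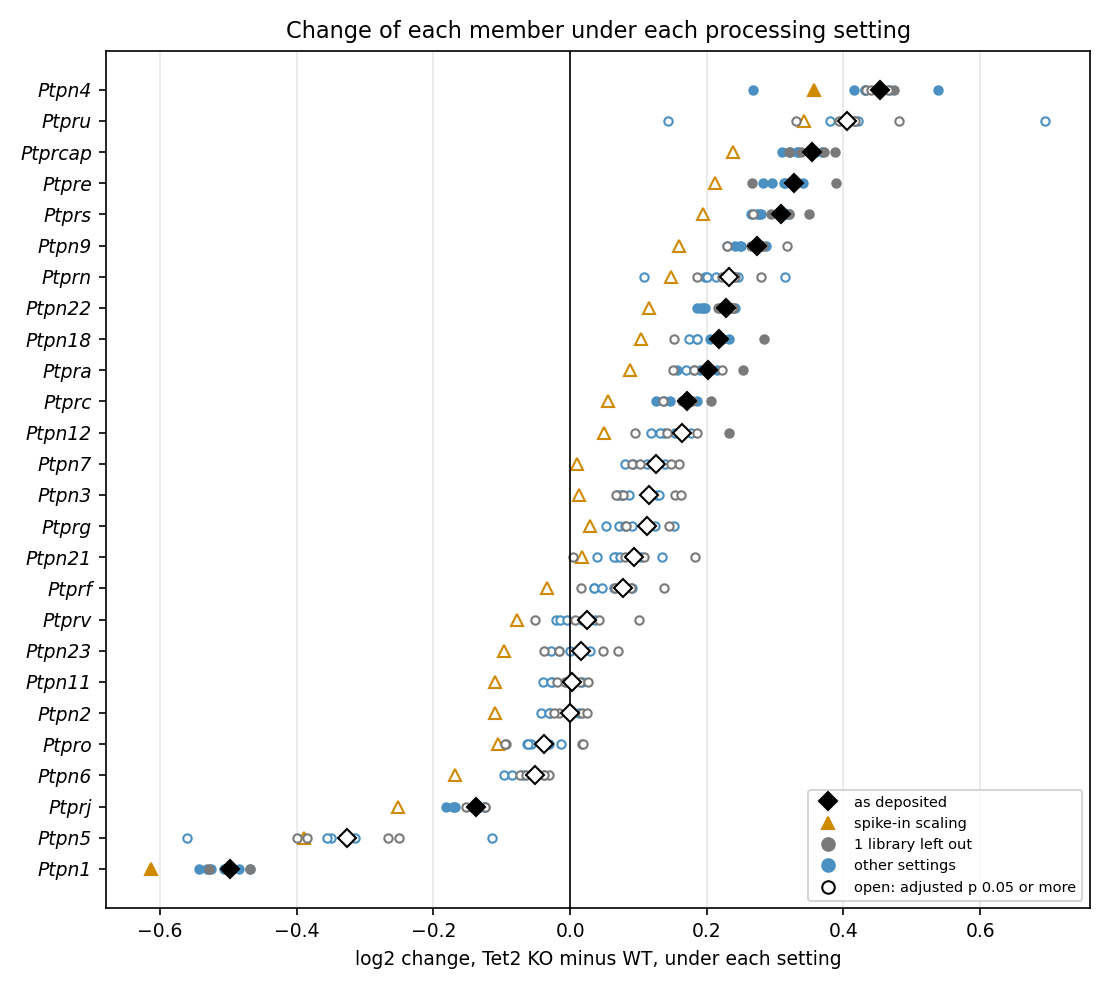
Log2 change of each tested member under each processing setting: black diamonds as deposited, orange triangles spike-in scaling, grey circles with 1 library left out, blue circles other settings, filled where the adjusted p was under 0.05. Ptpn1 stays filled from -0.61 to -0.47, while the spike-in triangles of most members that rose are open and lie left of the rest.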

How the data were processed

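Messenger RNA libraries of 4 samples were compared, 2 WT and 2 Tet2 KO, grouped and numbered by the sample titles. The authors deposited 1 table of TPM for 24589 entries, whose unit was read from the values, since each column sums to 1000000. The submitters' processing notes name STAR, RSEM and mm10. Versions, annotation and strand setting are not given in the sources used here. Spike-in entries (92) were left out, as were genes with 1 TPM or more in fewer than 2 libraries. The rest were transformed to log2(TPM + 1) and fitted with limma 3.58.1 in R 4.3.3 (variance trend, no block, 2 residual and 3.51 prior degrees of freedom). The fit was also run on simulated data with few changed genes and independent noise. Far more genes were called here, so that run does not give the error of these calls. Every member that passed the filter was named, with up to 4 genes of smallest p from each pathway list. Some genes of these lists are not reported here. Abl1 and Jak3 were named after their values were seen. The members and lists were chosen with earlier results of these data known. Gene positions are from GENCODE M21 on GRCm38, promoter windows from RefSeq. The 17 alternatives fixed with the tests changed scaling, filter, pseudocount, variance model, threshold, block or the libraries used.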

Additional observations from a re-analysis of the deposited data

How the results depend on the processing

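Of 11 called members, Ptpn1 alone was called under all 16 alternatives with a test at 0.05. As deposited 9 members, Ptprcap included, were higher (4 receptor-type, 4 cytosolic) and 2 lower (1 and 1). With spike-in scaling 1 was higher (0 receptor-type, 1 cytosolic) and 1 lower (0 receptor-type), and at an adjusted p under 0.01 the counts were 3 (2 and 0) and 1 (0 receptor-type). The lower count was also 1, and 0 for receptor-type, with the replicate block, rescaling without spike-ins and Rn45s, no filter and no variance trend. Leaving out 1 library gave 1 to 9 higher members (0 to 4 receptor-type, 0 to 4 cytosolic) and 1 lower in each case (0 receptor-type). Over all genes 2237 were higher and 1369 lower, or 634 higher with spike-in scaling, 839 and 666 at 0.01, and 500 to 1910 and 515 to 995 with 1 library left out. Higher calls were 62.0% of calls as deposited, 48.7% with trimmed-mean scaling, 51.8% without the neutrophil markers and 29.9% with spike-in scaling.

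Members that did not pass changed sign under some settings, none with a call. With quantile scaling, trimmed-mean scaling, spike-in scaling and rescaling without the neutrophil markers, in that order, Ptpn11 was at -0.0266, -0.0403, -0.11 and -0.0285, Ptpn2 at -0.0293, -0.0423, -0.11 and -0.0309, Ptpn23 at -0.000636, -0.0276, -0.0967 and -0.0158, and Ptprv at -0.0203, -0.0149, -0.0777 and -0.00418. Ptprf was at -0.0334 with spike-in scaling. With 1 library left out the ranges were -0.0185 to 0.0256 for Ptpn11, -0.0241 to 0.0247 for Ptpn2, -0.0387 to 0.0707 for Ptpn23, -0.0949 to 0.0195 for Ptpro and -0.0518 to 0.101 for Ptprv. The cause of these shifts was not tested.

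The replicate numbers share only a number between groups (r = -0.11 for deviations of same-numbered libraries over 11837 genes). With the replicate block 1888 genes were higher and 1183 lower, and Ptprj was the only member whose call changed. A crossed pairing, chosen after seeing the data, gave 2136 and 1327, with 1 lower member and 0 lower receptor-type members. Depth is unknown, so members near 1 TPM carry an error that these files cannot give.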
